A study of Mus musculus with 16 samples.

Results

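10 genes of MHC class I antigen presentation and T cell costimulation were followed in mouse stem cell derived macrophages, all 10 taken by name from 20659 named genes of the array, with every probe whose accession maps to them. They are the class I heavy chains H2-D1 and H2-K1, the light chain B2m, the peptide transporter and loading genes Tap1, Tap2 and Tapbp, the transcriptional regulator Nlrc5, and the costimulatory molecules Cd40, Cd80 and Cd86. They are covered by 13 of 39429 probes, since H2-K1, Nlrc5 and Cd80 have 2 probes each. All 10 genes and all 13 probes passed the brightness filter that left 12759 genes for testing, which kept a probe if the scanner software called its red signal well above background on each of the 4 arrays of some group.

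RNA was measured on 16 Agilent arrays with 4 biological replicates per group, named a to d. The groups were cells given 10 ng/mL lipopolysaccharide (LPS, a bacterial cell wall component) for 8 h, cells given 200 µM heme-albumin for 8 h, cells given 50 µM heme-albumin for 8 h, and untreated control cells at 0 h. Strain, sex, genotype and stem cell line are not given in the sources used here, and no albumin-only group was analysed here. Each array carried the sample in red (Cy5) and untreated reference RNA in green (Cy3), and the control arrays carried untreated RNA in both. All values below are log2 ratios of red over green unless said otherwise. Because the control cells were taken at 0 h, the treatment and the 8 h in culture cannot be told apart in any comparison with control.

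Class I molecules display peptides from inside the cell to CD8 T cells. Cytosolic peptides are pumped into the endoplasmic reticulum by the Tap1-Tap2 transporter and loaded, with the help of tapasin (Tapbp), onto a heavy chain paired with beta-2 microglobulin (B2m), and Nlrc5 drives transcription of this gene set. Cd80 and Cd86 on an antigen-presenting cell bind Cd28 and Ctla4 on T cells, and Cd40 is the receptor for Cd40 ligand, through which activated T cells signal back to macrophages, dendritic cells and B cells. LPS acts through the receptor Tlr4, and in macrophages it is known to induce NF-kB target genes and, through interferon beta, interferon-stimulated genes.

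The promoters of the 3 genes that make up the class I molecule itself are shown because these promoters are a textbook site of NF-kB and interferon control, the routes LPS is known to act through. RefSeq windows (assembly GRCm38.p6) of 300 bases, 250 of them before the start site, were held for 6 of the 10 genes, namely H2-D1, H2-K1 (2 windows), B2m, Tap1, Tapbp and Cd80, and were searched on both strands. The 250 bases before the start site are printed 5′ to 3′ on the gene's strand for H2-D1 (chr17:35262844-35263093, plus strand), for the second window of H2-K1 (chr17:34000334-34000583, minus strand) and for B2m (chr2:122147437-122147686, plus strand). Capitals mark the palindromic kappa B sequence in the heavy chain promoters and the interferon response element core in B2m, both searched by exact letters. Variants of these sites outside the letters searched were not looked for, so a stretch without capitals may still hold one.
H2-D1: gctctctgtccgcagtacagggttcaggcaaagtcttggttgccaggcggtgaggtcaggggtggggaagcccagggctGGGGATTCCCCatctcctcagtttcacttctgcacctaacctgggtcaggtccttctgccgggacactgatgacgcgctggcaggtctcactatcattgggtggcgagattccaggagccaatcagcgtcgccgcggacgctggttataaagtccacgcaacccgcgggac
H2-K1: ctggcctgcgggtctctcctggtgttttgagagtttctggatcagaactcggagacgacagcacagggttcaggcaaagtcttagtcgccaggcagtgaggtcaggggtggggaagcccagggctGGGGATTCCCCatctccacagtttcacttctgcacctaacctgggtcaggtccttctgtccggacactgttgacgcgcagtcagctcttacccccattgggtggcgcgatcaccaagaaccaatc
B2m: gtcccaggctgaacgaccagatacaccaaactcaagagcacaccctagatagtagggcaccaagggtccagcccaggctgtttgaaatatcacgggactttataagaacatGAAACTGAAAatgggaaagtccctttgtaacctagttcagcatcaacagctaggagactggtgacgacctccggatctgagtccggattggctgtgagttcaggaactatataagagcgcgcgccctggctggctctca
The kappa B palindrome began 171 bases before the annotated start of H2-D1 and 125 bases before that of H2-K1. It was present in 10 of 32851 mouse promoter windows of this length (0.0304%), among them those of H2-D1 and H2-K1. No enrichment was tested, so this share is a description only. The interferon core began 139 bases before the start of B2m and was present in 3.44% of windows. Tap1, Tapbp and Cd80, which were also searched, held neither the palindrome nor the interferon core. The other kappa B form searched, GGGANTTCC, was found in 1.68% of windows and in none of the 6 genes, while ATTGG, the CCAAT box, was found in 37.4% of windows and in 5 of the 6 genes. No matches of different motifs overlapped. These matches describe letters in the windows and no binding was measured.

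The labelled cell type was checked against markers. The 9 macrophage markers with a probe were well above background on all 16 arrays, among them Csf1r and Adgre1. Of 10 dendritic cell markers, Xcr1 and Cd209a were well above background on 0 arrays, while Siglech, Itgax and Batf3 were so on all 16 and Zbtb46 on 3 or 4 of each group. Ccr7 was well above background on 4 LPS arrays, on 2 arrays at 200 µM, 1 at 50 µM and 1 in control, Clec9a on 3 LPS arrays and 1 control array, and Flt3 and Dpp4 on 0 to 3 arrays of a group. Of the B cell markers reported, Cd79a and Ms4a1 were well above background on 0 arrays, Cd79b on all 16, Cr2 on 3 or 4 of each group, and Pax5 on 1 array. The share of probes whose red signal cleared background ran from 49.9% to 59.4% per array with 0 saturated spots. Each slide held 1 array of every group, so that replicate letter and slide cannot be told apart. In the sample titles each letter also carries 1 tag that all 4 groups share. What the tag marks is not given, so slide and a shared cell source cannot be told apart. The main fit used no block for this pairing. A group always lay at the same position on its slide, so position and group cannot be told apart. In bulk RNA such as this, more cells of a type and more RNA per cell cannot be told apart either.

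The first question was how LPS changed these genes. Of the 10 genes, 8 rose and 1 fell by the call used throughout (limma, adjusted p under 0.05 and at least 2-fold), where 14% of all genes tested were called higher and 16.7% lower. Cd40 rose 25.1-fold, Nlrc5 7.84-fold, Tap1 6.8-fold, Cd86 6.38-fold and Tap2 4.97-fold, and B2m and Tapbp rose 2.47-fold. H2-K1 rose 2.17-fold and H2-D1 was 1.68-fold higher and not called. Both turned below 0 in the red channel alone after quantile normalisation, and were at 0.80 and 0.61 relative to the median red change. The exception was Cd80, which was 2.61-fold lower by its brighter probe and 2.54-fold higher by its dimmer one. In each of the 10 genes the LPS arrays and the control arrays did not overlap, 9 with LPS above and 1 below, against 31.3% and 41% of all genes. The median change of the 10 genes was 1.81, against -0.09 over all genes tested.

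**Figure D1:**
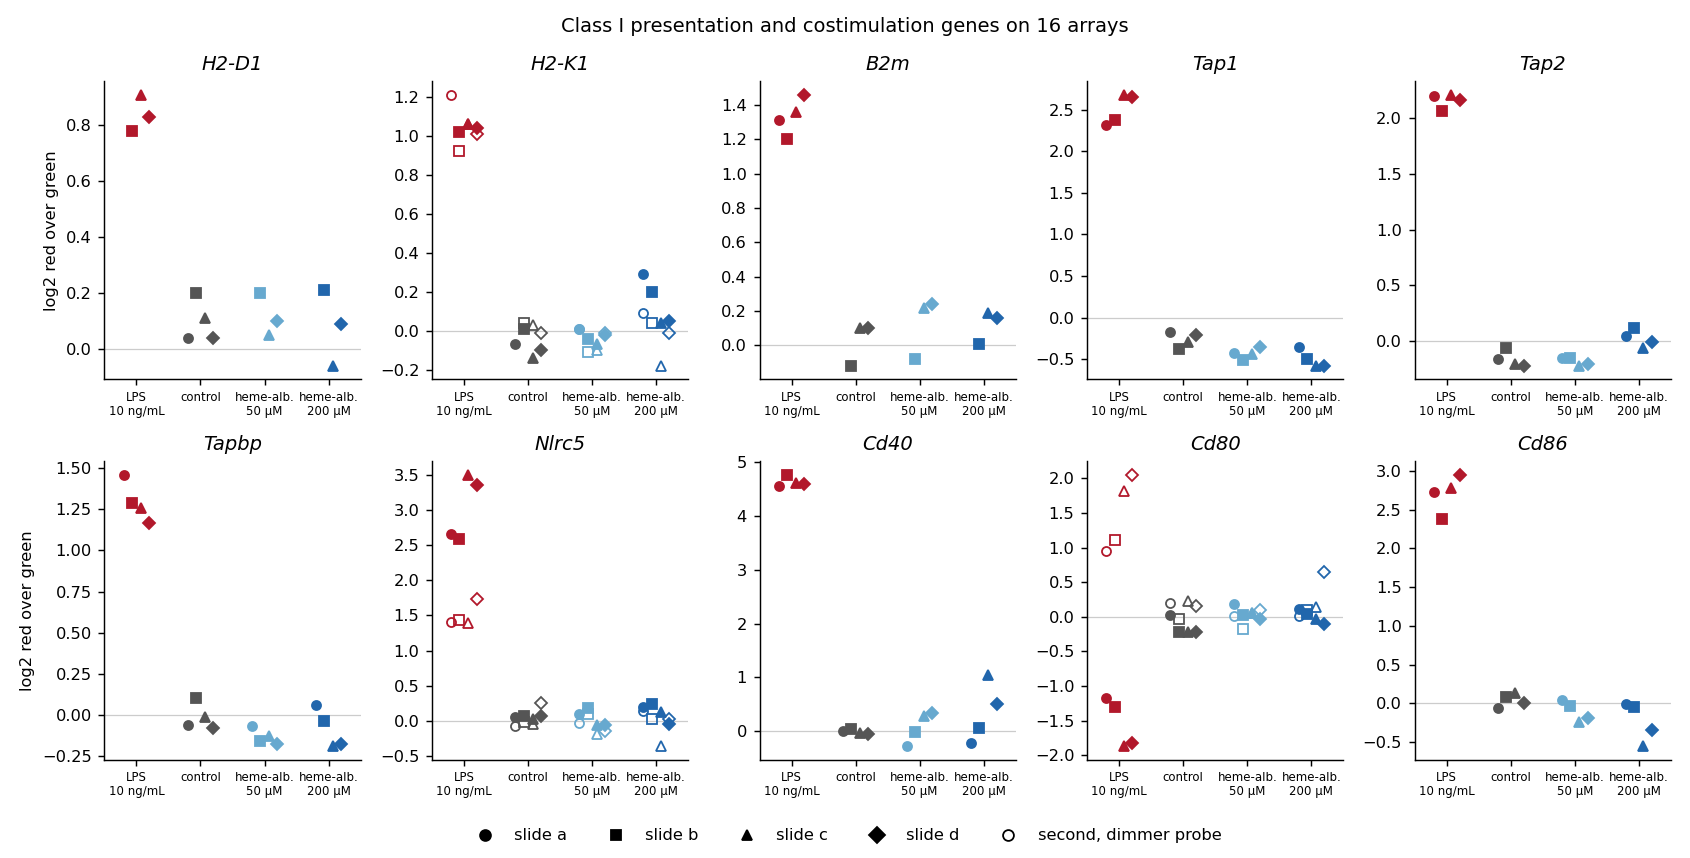
Log2 ratio of red over green (vertical axis, scaled per gene) for each of the 10 genes on each array, with LPS, control and the rising heme-albumin doses side by side. Filled symbols are the brightest probe and open symbols the second probe of H2-K1, Nlrc5 and Cd80, and symbol shape gives the slide. In these ratios the LPS arrays stand clear of the others in every gene, and the 2 probes of Cd80 move to opposite sides. In the red channel alone the LPS changes of H2-D1 and H2-K1 are -0.40 and -0.17 after quantile normalisation. Relative to the median red change they are 0.61 and 0.80.

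Among the transporter and loading genes, Tap1 had log2 ratios of 2.31, 2.37, 2.68 and 2.65 on LPS arrays, against -0.17, -0.38, -0.29 and -0.21 on control arrays. Its change was 2.77 ± 0.0849 (SE; limma, adjusted p = 4.6e-13). Tap2, the other subunit of the same transporter, had 2.20, 2.06, 2.21 and 2.16 with LPS, against -0.16, -0.06, -0.20 and -0.22 in control. In both genes every LPS array lay more than 2 log2 units above every control array. The change of Tap2 was 2.31 ± 0.0524 (SE; limma, adjusted p = 2e-14). Tapbp, which bridges the transporter to the empty class I molecule, had 1.46, 1.29, 1.26 and 1.17 with LPS and -0.06, 0.10, -0.01 and -0.08 in control, a change of 1.30 ± 0.0703 (SE; limma, adjusted p = 2.4e-10).

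The class I chains had smaller changes in their ratios than the transporter. H2-K1 had 1.02, 1.06 and 1.04 on the 3 LPS arrays with a value, against -0.07, 0.01, -0.14 and -0.10 in control, a change of 1.12 ± 0.062 (SE; limma, adjusted p = 9e-10). All 10 spots of this probe were flagged as outliers on LPS array a and were dropped there. Its second probe, measured on LPS array a as well, had 1.21, 0.92, 1.06 and 1.01 with LPS and a change of 1.03, so the 2 probes of H2-K1 gave like values. H2-D1 had 0.78, 0.91 and 0.83 with LPS (array a dropped), against 0.04, 0.20, 0.11 and 0.04 in control. Its change of 0.74 ± 0.0721 (SE; limma, adjusted p = 1.4e-06) was 1.68-fold and so not called, although the groups did not overlap. B2m, the light chain that all these heavy chains share, had 1.31, 1.20, 1.36 and 1.46 with LPS and -0.12, 0.10 and 0.10 in control (array a dropped), a change of 1.31 ± 0.0953 (SE; limma, adjusted p = 9.6e-08).

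When the green channel was not used, the heavy chain and B2m changes differed with the normalisation of the red channel. With the red channel alone, quantile normalised over the 16 arrays, the LPS change of H2-D1 was -0.40 and that of H2-K1 -0.17, against 0.74 and 1.12 from the ratios, and B2m and Tapbp were at 0.48 and 0.95 and no longer called. H2-K1 had a geometric mean red processed signal of 252000 on LPS arrays and 62700 on control arrays, before that normalisation. With the median red change over all genes subtracted instead, the LPS changes of H2-D1, H2-K1, B2m and Tapbp were 0.61, 0.80, 1.04 and 1.37. The processed signals of both colours were higher on LPS arrays as a whole, by a median over genes of 1.28 (green) and 1.21 (red) on the log2 scale. Class I heavy chain genes share much of their sequence, and how far their probes share RNA was not tested.

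Nlrc5, the class I transactivator, had 2.66, 2.59, 3.50 and 3.35 with LPS and 0.05, 0.07, 0.03 and 0.07 in control. Its change was 2.97 ± 0.166 (SE; limma, adjusted p = 3.6e-10). The LPS arrays of slides c and d, scanned on the second of 2 days, were the higher pair: the change was 3.38 on that day and 2.56 on the first. The dimmer probe of Nlrc5, with a geometric mean red signal of 160 with LPS and 21.9 in control, rose less, by 1.47 ± 0.117 (SE).

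Cd40 showed the largest change of the 10 genes. Its log2 ratios were 4.57, 4.77, 4.62 and 4.60 with LPS and 0.00, 0.04, -0.04 and -0.05 in control, a change of 4.65 ± 0.207 (SE; limma, adjusted p = 2.7e-11). The red processed signal was 69800, 77300, 106000 and 112000 on LPS arrays, against 237, 178, 174 and 175 on control arrays. The green signal, which stands for untreated RNA on every array, was also higher on LPS arrays, at 2930, 2840, 4330 and 4630, against 237, 173, 179 and 181 on control arrays. After the median change over all genes was subtracted, the LPS change of the log2 signal of Cd40 was 2.96 in green and 7.68 in red. Among all genes tested, 26 of 12759 (0.204%) had a larger green change, and on this scale the range from the 1st to the 99th percentile was -0.51 to 0.95. The other 9 genes had green changes between -0.39 and 0.24 beyond the median change. The ratio change of Cd40 is therefore smaller than its red-channel change, and the cause of the green difference was not tested.

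**Figure D2:**
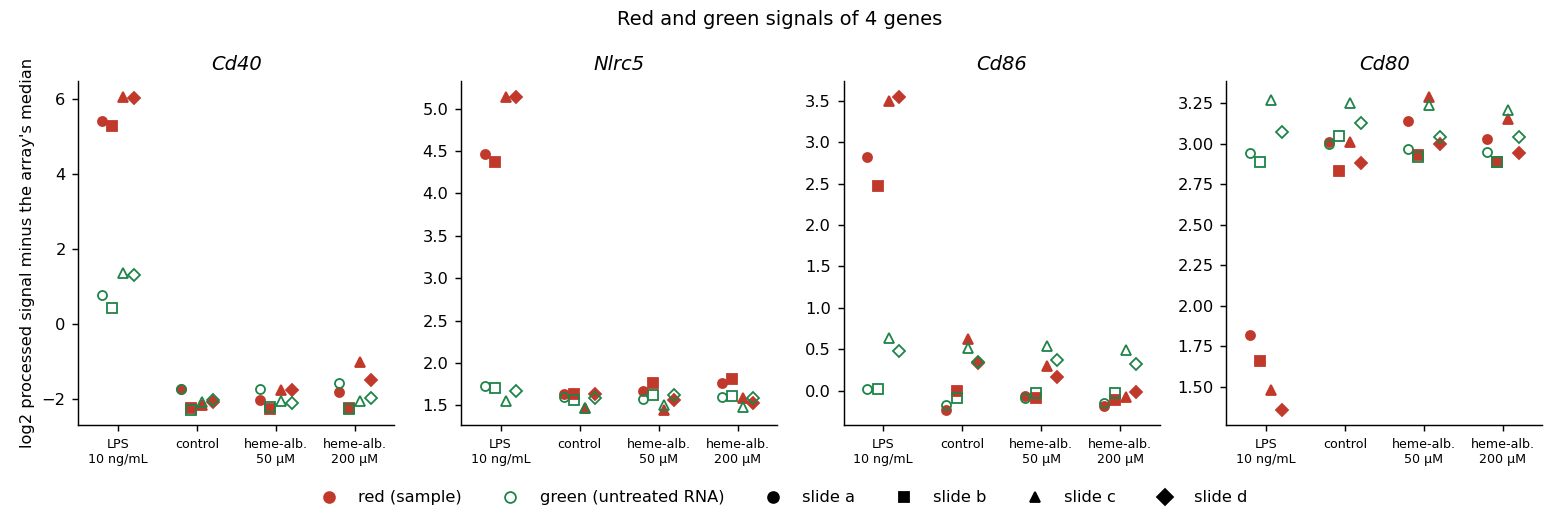
Log2 processed signal minus the array's median gene (vertical axis) in red (filled, the sample) and green (open, untreated RNA) for Cd40, Nlrc5, Cd86 and Cd80 on each array, with symbol shape giving the slide. Green averages 0.98 on LPS arrays and -2.03 on control arrays for Cd40, while for Nlrc5 it averages 1.67 and 1.56, for Cd86 0.29 and 0.15 and for Cd80 3.04 and 3.11, LPS arrays first.

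Cd86 and Cd80, both ligands of Cd28 and Ctla4, went opposite ways on their brightest probes. Cd86 had 2.73, 2.38, 2.78 and 2.95 with LPS and -0.06, 0.09, 0.13 and 0.00 in control, a change of 2.67 ± 0.129 (SE; limma, adjusted p = 6.8e-11). Cd80 had -1.18, -1.30, -1.87 and -1.83 with LPS and 0.02, -0.22, -0.22 and -0.22 in control, a change of -1.39 ± 0.133 (SE; limma, adjusted p = 1.8e-07). Every LPS array was above every control array for Cd86 and below for Cd80. The second probe of Cd80 had 0.95, 1.11, 1.82 and 2.05 with LPS and 0.20, -0.03, 0.22 and 0.15 in control, a change of 1.34 ± 0.215 (SE; limma over all probes, adjusted p = 1e-04). This probe was dim, with a geometric mean red signal of 368 with LPS and 58.8 in control, where the brighter probe had 5150 and 6000. Both probes map to the same Cd80 accession, and with the mean of both the change was -0.02, so no direction of Cd80 after LPS is given for the gene. For both probes the change was larger on slides c and d than on slides a and b.

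**Figure D3:**
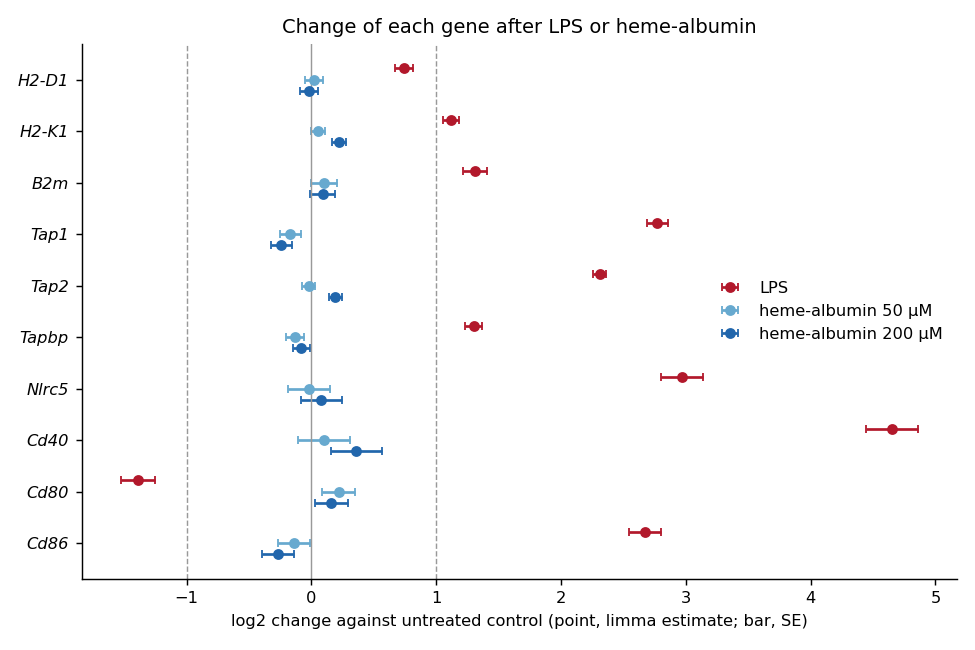
Log2 change against control (horizontal axis, limma estimate with its SE) of each gene after LPS and after both heme-albumin doses, from the brightest probe, with dashed lines at 2-fold. LPS points lie beyond the 2-fold lines except for H2-D1, and all heme-albumin points lie between -0.27 and 0.36. In the quantile-normalised red channel alone H2-D1 and H2-K1 turn below 0 after LPS. Relative to the median red change they are at 0.61 and 0.80.

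Heme-albumin at 200 µM called 0 of the 10 genes in either direction (limma), where 3.03% of all genes were called. Of the 10 genes, 3 had an unadjusted p under 0.05. No share over all genes is given for this threshold, here or below, so these counts are descriptions only. The ordinary least squares fit without moderation also called 0. The changes lay between -0.27 (Cd86) and 0.36 (Cd40), and their 95% confidence intervals between -0.55 and 0.80, inside 2-fold either way for each gene. The median change was 0.08, against -0.02 over all genes. At this dose 10.8% of all genes had an adjusted p under 0.05 in the upward direction at any size, and of the 10 genes H2-K1 and Tap2 did. These 2 were also the ones whose 200 µM arrays all lay above the control arrays, which held for 15.9% of all genes.

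H2-K1 had 0.29, 0.20, 0.04 and 0.05 at 200 µM, against -0.07, 0.01, -0.14 and -0.10 in control, a change of 0.22 ± 0.0574 (SE; limma, adjusted p = 0.013). Its second probe was at -0.03, so this small difference was seen with 1 of its 2 probes, and the adjusted p was 0.1 with normexp and 0.6 with the red channel alone. Tap2 had 0.05, 0.12, -0.06 and -0.01 at 200 µM, against -0.16, -0.06, -0.20 and -0.22 in control, a change of 0.19 ± 0.0524 (SE; limma, adjusted p = 0.019). The lowest 200 µM array and the highest control array of Tap2 both round to -0.06 but did not overlap. On each slide the 200 µM array of Tap2 was above the control array, by 0.14 to 0.21. Its adjusted p was 0.06 or 0.063 without control replicate c or d, 0.063 without 200 µM replicate b, and 0.43 with the red channel alone (limma). Without the 8 arrays marked for evaluation by the scanner software, H2-K1 was at 0.11 and Tap2 at 0.09. That fit had control b as its only control array, so no p-value is given for it. Tap1 had -0.35, -0.50, -0.58 and -0.58 at 200 µM, against -0.17, -0.38, -0.29 and -0.21 in control, a change of -0.24 ± 0.0849 (SE; limma, adjusted p = 0.057).

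Cd40 had -0.22, 0.06, 1.04 and 0.50 at 200 µM, against 0.00, 0.04, -0.04 and -0.05 in control, a change of 0.36 ± 0.207 (SE; limma, adjusted p = 0.25). The 2 arrays of the second scan day were the higher ones, with a change of 0.81 on that day (limma, adjusted p = 0.015) and -0.10 on the first (limma, adjusted p = 0.66). Cd86 had -0.01, -0.04, -0.55 and -0.34 at 200 µM, against -0.06, 0.09, 0.13 and 0.00 in control, a change of -0.27 ± 0.129 (SE; limma, adjusted p = 0.15), and was at -0.51 on the second day and -0.04 on the first. Whether the days differ was not tested, and day cannot be told apart from the replicates scanned on it. H2-D1, B2m, Tapbp, Nlrc5 and Cd80 changed by -0.08 to 0.16, with adjusted p from 0.43 to 0.9 (limma) and overlapping groups.

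Heme-albumin at 50 µM called 0 of the 10 genes (limma), where 0.368% of all genes were called, and 0 had an unadjusted p under 0.05. The ordinary least squares fit also called 0. The changes lay between -0.17 (Tap1) and 0.22 (Cd80), with a median of 0.00 against -0.01 over all genes. Their 95% confidence intervals lay between -0.42 and 0.54, and adjusted p ran from 0.41 to 0.99. The arrays of each of the 10 genes overlapped with those of control, where 8.74% of all genes lay wholly above and 10.4% wholly below.

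Between the doses, 200 µM against 50 µM, 0 of the 10 genes were called (limma; 0.831% of all genes), and 2 had an unadjusted p under 0.05. Tap2 was higher at 200 µM by 0.21 ± 0.0524 (SE; limma, adjusted p = 0.024, and 0.023 to 0.08 when single arrays of either dose were left out), and H2-K1 by 0.17 ± 0.0574 (SE; limma, adjusted p = 0.095). In both genes the doses did not overlap, as in 10.2% of all genes, and an adjusted p under 0.05 in this direction was reached by 4.2% of all genes. In order of level, each gene except Cd80 had LPS at the top and the untreated and heme-albumin groups together below it, and for Cd80's brighter probe LPS was at the bottom. Within the untreated and heme-albumin groups, all arrays of H2-K1 and Tap2 were higher at 200 µM than in both other groups, and the arrays of the other 8 genes overlapped.

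Set directly against LPS, 200 µM heme-albumin was lower in 7 genes and higher in 1 by the same call, where 13.6% and 16.8% of all genes were. Tap1 differed by -3.00, Cd40 by -4.30, Cd86 by -2.95, Nlrc5 by -2.90 and Tap2 by -2.13, and Cd80's brighter probe by 1.55 (its dimmer probe by -1.26). H2-K1 at -0.90 and H2-D1 at -0.76 had an adjusted p under 0.05, as 34.7% of all genes did in this direction, and stayed under 2-fold. At 50 µM, 8 genes were lower than with LPS and 1 higher, against 13.9% and 16.7% of all genes. These comparisons share the LPS arrays, as those above share the control arrays.

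Partner genes were also set against each other on each array by subtracting their log2 ratios, with exact two-sided permutation tests over arrays (9 tests, Benjamini-Hochberg adjusted, smallest p possible 0.029). These tests ignore that each slide held 1 array of every group. Permuted within slides, the smallest exact p possible was 0.125 with 4 slides and 0.25 with 3, so no pair could pass, and adjusted p was 0.19 to 0.75. The pair differences are therefore given as a description. Tap1 minus Tap2 was 0.11, 0.31, 0.47 and 0.49 with LPS, against -0.02, -0.32, -0.09 and 0.01 in control, a difference of 0.45 (exact permutation p = 0.029, adjusted p = 0.043). At 200 µM heme-albumin it was -0.41, -0.63, -0.52 and -0.57, a difference from control of -0.43 with the same p. The arrays of LPS lay above and those of 200 µM below the control arrays in this pair, with no overlap. At 50 µM the difference from control was -0.15 (exact permutation p = 0.14, adjusted p = 0.16). As 0.029 is the smallest p that 4 against 4 arrays (and 3 against 4) allow here, an adjusted p under 0.05 needs most of the 9 tests to reach it, and the adjusted p of these pairs was 0.051 or higher with normexp background correction, the red channel alone or the mean of all probes.

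H2-D1 minus H2-K1 was -0.24, -0.15 and -0.21 with LPS, against 0.11, 0.19, 0.26 and 0.15 in control, a difference of -0.37 (exact permutation p = 0.029, adjusted p = 0.043). At 200 µM the difference was -0.19 with the same p, and with the second H2-K1 probe it was 0.03, so it rests on 1 probe. Cd80 minus Cd86 was -3.92, -3.67, -4.66 and -4.78 with LPS, against 0.08, -0.30, -0.35 and -0.22 in control, a difference of -4.06 (exact permutation p = 0.029, adjusted p = 0.043). It was -1.33 with the dimmer Cd80 probe. At 200 µM this pair differed from control by 0.44 (exact permutation p = 0.029, adjusted p = 0.043), and at 50 µM by 0.36 (exact permutation p = 0.057, adjusted p = 0.073).

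**Figure D4:**
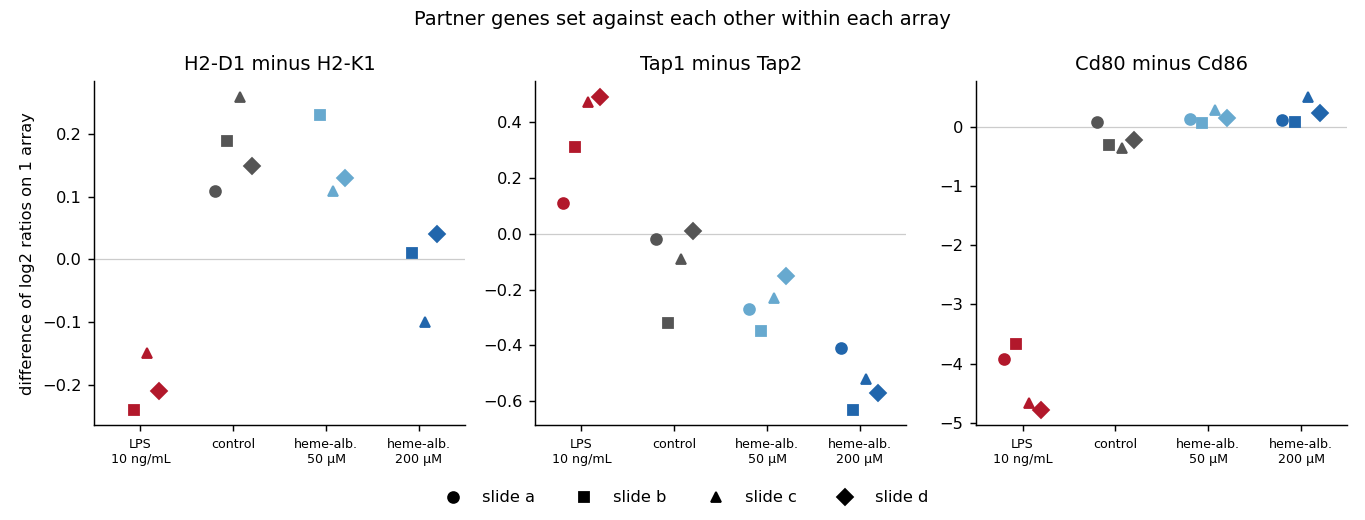
Difference of the log2 ratios of 2 partner genes on the same array (vertical axis) for each array of the 4 groups, with symbol shape giving the slide. Tap1 minus Tap2 lies above control after LPS and below it at 200 µM heme-albumin, and Cd80 minus Cd86 lies between -4.78 and -3.67 on LPS arrays and near 0 on the others.

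The other genes of the pathway were read as 5 lists, to be set beside the shares called over all genes tested: 14% higher and 16.7% lower after LPS, 3.03% either way at 200 µM and 0.368% at 50 µM. Against these shares, the counts of 0 in heme-albumin and the small counts that fell after LPS (3 of 13 and 2 of 15) are near the background. Of the 13 further class I heavy chain genes measured (of 18 listed), 4 rose and 3 fell after LPS, with a median change of 0.76. H2-T24 (2.61 ± 0.0772, SE) and H2-T10 (2.51 ± 0.0561), nonclassical class I genes, rose most, and Fcgrt (-2.06 ± 0.0922), the heavy chain of the neonatal Fc receptor, and Mr1 (-1.72 ± 0.12), which presents microbial vitamin metabolites, fell most. At 200 µM heme-albumin 1 of the 13 was called. This was Cd1d1, which presents lipids to NKT cells, with 1.56, 1.48, 1.07 and 1.19 at 200 µM, against -0.17, -0.09, -0.18 and -0.16 in control, a change of 1.47 ± 0.102 (SE; limma, adjusted p = 1.1e-07). The change of Cd1d1 was 0.83 at 50 µM and 0.22 after LPS, and 200 µM was higher than LPS by 1.25 ± 0.102 (SE; limma, adjusted p = 2.9e-08). Every 200 µM array of Cd1d1 lay above every control array.

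Of 14 peptide trimming and loading genes, 7 rose and 0 fell after LPS, with a median of 1.09. Psme2 (2.70 ± 0.102, SE), an activator subunit of the proteasome, and Psmb10 (2.69 ± 0.0487), an immunoproteasome subunit, rose most, each from 3 LPS arrays since array a was dropped. Both heme-albumin doses called 0 of 14. Of 16 class I regulators measured (of 17), 5 rose and 0 fell after LPS, with a median of 0.56. Irf7 (3.21 ± 0.0855, SE) and Irf1 (2.68 ± 0.155), both interferon regulatory factors, rose most, and the doses of heme-albumin called 0 of 16. Irf7 was at -0.52 ± 0.0855 (SE) at 200 µM (limma, adjusted p = 5e-04), under 2-fold.

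Of 15 further costimulatory and coinhibitory ligands measured (of 18), 11 rose and 2 fell after LPS, with a median of 2.69. Tnfsf15 rose by 5.03 ± 0.24 (SE), Vsir fell by 2.25 on the log2 scale and Cd276 by 1.08, both being coinhibitory molecules of the B7 family. The probe of Cd276 was well above background on 3 of 4 LPS arrays. Its call was lost without LPS replicate a (-0.93) and with normexp or no background subtraction (-0.47 in both). It was also lost with median centring (-0.99) and on the second scan day alone (-0.78). Without the 8 arrays marked for evaluation, with control b as the only control array, Cd276 was at -0.99. For Cd70, the ligand of Cd27, no control array was well above background, and its red signal was at least 9.1-fold higher on LPS arrays. This bound is not a ratio to green. It is not corrected for the higher red signal of LPS arrays as a whole, a median of 1.21 on the log2 scale. At 200 µM heme-albumin 3 were called higher and 0 lower. Icam1, an adhesion molecule that holds T cells to the presenting cell, had 0.78, 0.73, 0.98 and 0.92 at 200 µM, against -0.16, -0.16, -0.17 and -0.14 in control, a change of 1.01 ± 0.119 (SE; limma, adjusted p = 2.3e-05). Leaving out 200 µM replicate c or d took Icam1 to 0.96 or 0.99, just under 2-fold. Tnfsf15 changed by 1.29 ± 0.24 (SE) and Tnfsf4, the Ox40 ligand, by 1.58 ± 0.489 (SE). Tnfsf4 overlapped between the groups, its probe was well above background on 2 of 4 control arrays, and its call (adjusted p = 0.031, limma) was lost without control replicate a, b or d (1.51, 1.52 and 1.34) or 200 µM replicate c or d (1.46 and 1.35). With normexp background correction Tnfsf15 was at 0.24 and Tnfsf4 at 0.28, and without background subtraction they were at 0.61 and 0.87. With the red channel alone Tnfsf15 was at 1.21 (limma, adjusted p = 0.088). With normexp 0 ligands were called, and without 200 µM replicate c 1 was. Leaving out the 8 arrays that the scanner software marked for evaluation kept control b as the only control array. In that fit Icam1 was at 1.01, Tnfsf15 at 1.39 and Tnfsf4 at 1.55. At any size, 5 of the 15 had an adjusted p under 0.05 upward at 200 µM and 3 downward (limma). Over all 12759 genes tested, 1380 did so upward and 1529 downward. Of the 3 downward genes, 2 are named here after their values were seen. Cd83, a surface marker of activated antigen-presenting cells, had -0.83, -0.95, -1.32 and -0.49 at 200 µM, against 0.11, 0.05, 0.15 and 0.07 in control. Its change of -0.99 ± 0.191 (SE; limma, adjusted p = 0.0016) was 1.99-fold and so not called, where LPS gave 3.18. Lgals9, the lectin galectin-9, was at -0.62 ± 0.0968 (SE; limma, adjusted p = 0.00029) at 200 µM and 2.59 after LPS. In both genes every 200 µM array lay below every control array. No share of all genes is given for this, so it is a description only.

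Of 10 genes close to the CD40 receptor in signalling, 6 rose and 0 fell after LPS, with a median of 1.67. Traf1 rose by 4.92 ± 0.151 (SE) and Nfkb2 by 2.60 ± 0.0424. At 200 µM heme-albumin 3 of the 10 rose, where 2.05% of all genes were called higher, and the median was 0.47, while Cd40 itself was not called. As the lists were chosen with earlier results of these data known, this count is a description only. Relb, the partner of Nfkb2 in noncanonical NF-kB dimers, had 1.13, 1.13, 1.13 and 1.04 at 200 µM, against -0.08, 0.03, 0.01 and -0.04 in control, a change of 1.13 ± 0.0441 (SE; limma, adjusted p = 4.7e-10). Traf1, an adaptor of TNF receptor family members, lay between 0.99 and 1.64 at 200 µM, against -0.13 to -0.10 in control, a change of 1.33 ± 0.151 (SE; limma, adjusted p = 1.6e-05). Traf3, an adaptor that restrains noncanonical NF-kB signalling, lay between 0.97 and 1.02 at 200 µM, against -0.07 to 0.03 in control, a change of 1.02 ± 0.0592 (SE; limma, adjusted p = 2e-08).

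Traf3 was higher at 200 µM heme-albumin than with LPS, by 0.43 ± 0.0592 (SE; limma, adjusted p = 8.3e-06), its change after LPS being 0.58. Relb and Traf1 were lower at 200 µM than with LPS, with differences of -1.06 and -3.59. At 50 µM the changes of Relb, Traf1 and Traf3 were 0.65, 0.57 and 0.49, none past 2-fold. With normexp background correction Relb was at 0.96 and Traf3 at 0.93, which left the call of Traf1. With the red channel alone Traf3 was at 0.97, under 2-fold. Without the 8 arrays that the scanner software marked for evaluation, with control b as the only control array, Traf1 was at 1.42 and Traf3 at 0.99.

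**Figure D5:**
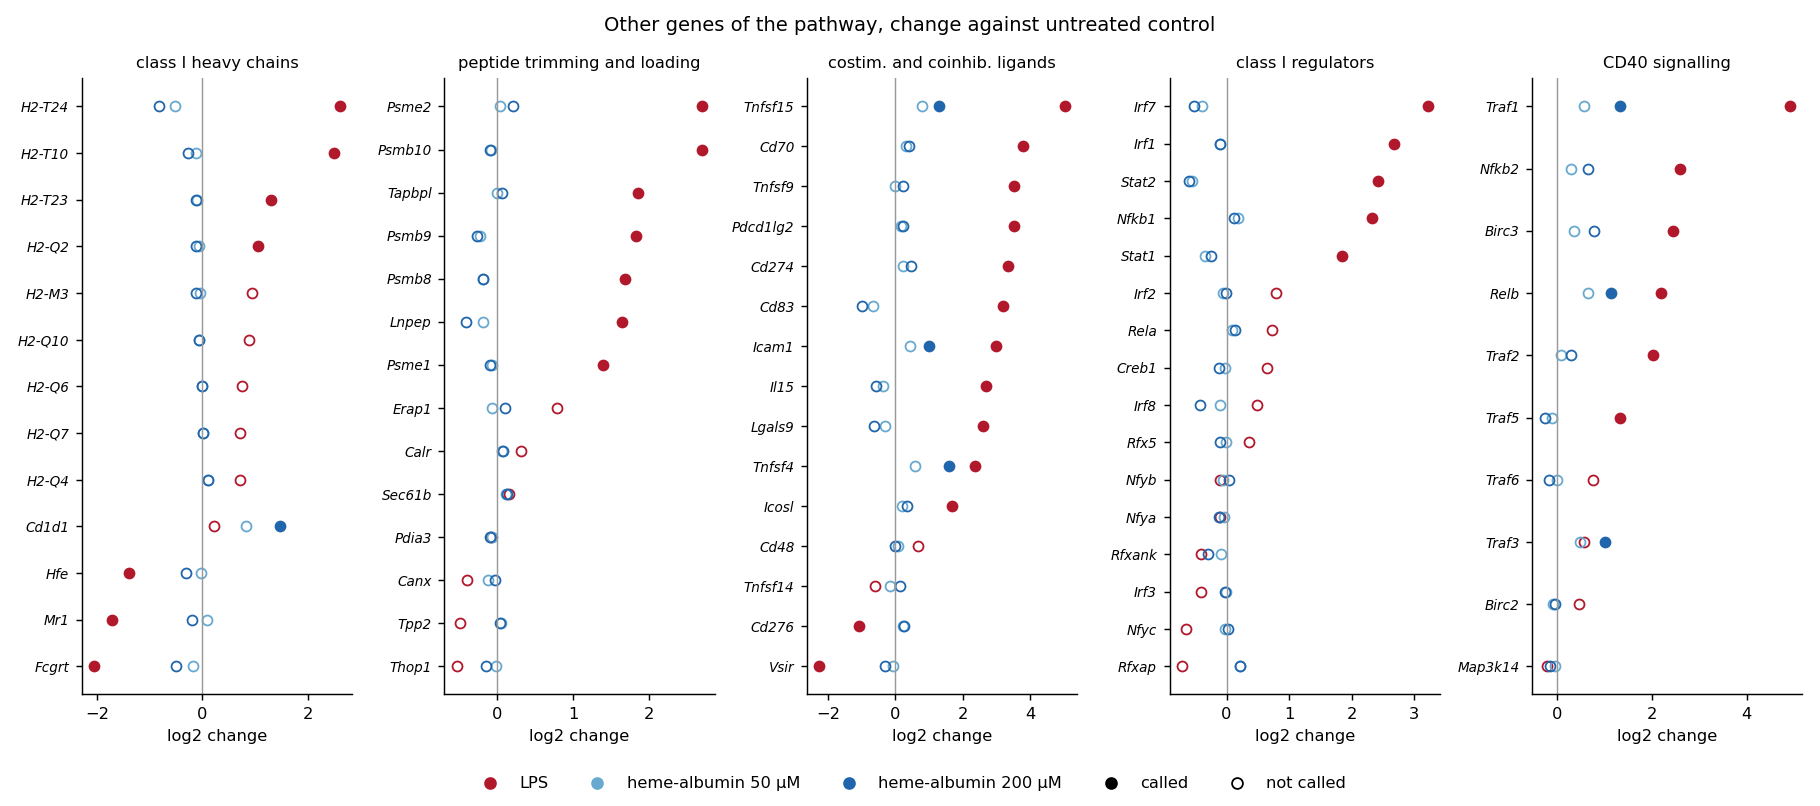
Log2 change against control (horizontal axis) of the other genes of the pathway in 5 lists, ordered by their LPS change, with filled points for called genes and open points for the rest. Filled heme-albumin points are few: Cd1d1 among the heavy chains, 3 ligands, and Relb, Traf1 and Traf3.

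For Nlrc5, Cd40, Cd80 and Cd86 the genes with the most similar pattern were found by the root mean square distance of their 3 changes against control, over 12758 other genes. Nearest to Nlrc5 was Kdm6b (distance 0.0097, LPS change 2.96), followed by Tmem170b and Klrk1. Nearest to Cd40 were Scimp (0.113, LPS change 4.47), Ddx4 and Casp4, to Cd80's brighter probe 6430550D23Rik (0.0408, LPS change -1.45), Cep43 and N4bp2l2, and to Cd86 F2r (0.0212, LPS change 2.70), Nmi and Tap1. These distances rest on 4 group means and carry no test.

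Marker genes of other cells were read beside the LPS results. Of the 10 dendritic cell markers, all with a probe, 5 were well above background on all 4 LPS arrays and 3 on all 4 control arrays, and their summed red signal was 18900 to 33400 on LPS arrays and 3410 to 12100 on control arrays. Ccr7, a receptor of migrating dendritic cells, was well above background on 4 of 4 LPS arrays and 1 of 4 control arrays, and the part of such cells in the rise of Cd40 and Cd86 was not tested. The summed red signal of 6 fibroblast markers was 654 to 925 on LPS arrays and 38.2 to 47.3 on control arrays, with Dcn well above background on 4 LPS and 0 control arrays and Col1a1 on 0 of both. That of the 5 neutrophil markers with a probe (of 6) was 7330 to 14400 on LPS arrays and 2980 to 4480 on control arrays, with 4 of them well above background on all 4 arrays of both groups. Among these, Camp had a geometric mean red signal of 1090 on LPS arrays and 95.2 on control arrays, and S100a8 had 1280 and 169. S100a9 had 3420 and 985, and Elane 4060 and 2070. By the ratios, 3 of the 4 neutrophil markers tested had an adjusted p under 0.05 upward after LPS and 1 downward (limma). Over all 12759 genes tested, 4404 did so upward and 5655 downward. The 6 T and NK cell markers summed to 870 to 2100 on LPS arrays and 322 to 792 on control arrays, with 2 well above background on all 4 arrays of both groups. The 6 pluripotent stem cell markers summed to 280 to 349 on LPS arrays and 132 to 146 on control arrays, and the 6 endothelial markers to 4240 to 6780 and 3130 to 4770. Of the stem cell markers, Nanog and Lin28a were well above background on all 4 arrays of each group. Pou5f1, Sox2 and Zfp42 were so on 0 arrays, and Dppa5a on 0 to 2 of each group. The macrophage markers summed to 303000 to 802000 on LPS arrays and 80400 to 165000 on control arrays. By the ratios, the median LPS change of the 9 macrophage markers tested was -0.33. Of these 9, 4 were higher and 5 lower at an adjusted p under 0.05 (limma). The median was 0.26 for the 2 stem cell markers tested, with 0 past that p, against -0.09 over all genes tested. It was 0.29 for dendritic cell, 3.40 for fibroblast, 1.07 for neutrophil, 0.15 for T and NK cell and 1.03 for endothelial markers. The summed signals are not corrected for the higher red signal of the LPS arrays as a whole, a median of 1.21 on the log2 scale. A rise in a sum is therefore no measure of more marker RNA, and the part of these markers in the results was not tested.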

How the data were processed

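Mouse stem cell derived macrophage RNA was hybridised to 2-colour Agilent arrays. Each spot's deposited ratio is a log10 value, red divided by green. Background subtraction and linear-lowess dye normalisation had been done by the authors in Agilent Feature Extraction (version 10.7.3.1 in the submitters' processing notes), per the labels and the file headers. The 2 deposited processed signals per spot are intensity on a linear scale, per the file headers. Per the labels, the authors entered the log10 ratios into an analysis of variance with a 2-fold filter.

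Here log10 ratios were put on the log2 scale, spots of a probe averaged and control and outlier spots left out (188 to 690 outlier spots per array). Accessions were named through a RefSeq gene table of GRCm38.p6 (27234 probes named, 12195 unnamed here), and the brightest of the kept probes stood for its gene. Group means over all 16 arrays were fitted by lmFit and eBayes of limma 3.58.1, without a block, under R 4.3.3, and p-values were adjusted by Benjamini-Hochberg over 12759 genes in each of 6 comparisons. The script was tested on simulated data. Figures used matplotlib 3.10.9. The array design's build differs from the promoter table's, so no probe coordinates are given. The number of arrays limits the precision. The deposited ratio equalled that of the processed signals within 0.001 for 73.2% of spots and was listed at 0 for the rest.

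The genes and lists were chosen with earlier results of these data known. A B cell marker, and the sum over that list, are not reported here. Named from each list were the 2 called genes with the largest LPS change each way and any gene called against control in heme-albumin. The replicate letters mark slides and the tags shared in the sample titles. Same-letter arrays deviated together with correlations over 0.1 in each of 4 pairs in 5 comparisons, and from 0.0962 to 0.114 in LPS against control. Alternatives tried were normexp (offset 50) and no background subtraction (both on median spot signals, the files used holding no mean signal), median centring, the red channel alone, no filter, all probes averaged, slide and scan day as blocks, each scan day, no moderation and leaving out each array. Chosen after seeing the data were keeping outlier spots, leaving out the 8 arrays that the scanner software marked for evaluation, the dimmer probe of H2-K1, Nlrc5 and Cd80, and permuting the pairs within slides. Leaving out the 8 marked arrays kept control b as the only control array.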

Additional observations from a re-analysis of the deposited data

Results flagged for a closer look

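Among the control arrays, replicate a stood apart for Cd80: its log2 ratio was 0.02, against -0.22 on the nearest of the other 3, and this gap was 0.974 of the group's range (above Dixon's critical value for 4 samples). Of 33 groups tested, this was the 1 so marked, and chance marks about 1 in 20.

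In the green channel, which the comparisons use only as the denominator, the log2 signal of Cd40 changed by 2.96 between LPS and control arrays beyond the median change over all genes, past the 99th percentile of all genes (0.95). The green signal of Cd40 minus that of the array's median gene lay between 0.44 and 1.37 on LPS arrays and between -2.28 and -1.74 on control arrays.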

How the results depend on the processing

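The number of the 10 genes called after LPS was 9, and it was 8 with normexp background correction, 8 without background subtraction, 8 with the mean of all probes, 6 with the red channel alone, and 9 in each fit that left out an array. With either heme-albumin dose against control, 0 were called under each alternative run. With the replicate block the counts were 9 for LPS, 0 for 200 µM and 0 for 50 µM against control, 0 between doses, and 8 and 9 for 200 µM and 50 µM against LPS, and it changed no count of genes. In the quantile-normalised red channel alone H2-K1 turned to -0.17 after LPS and to 0.21 in 50 µM against LPS. Relative to the median red change H2-K1 was at 0.80 after LPS. The dimmer probe turned Cd80 to 1.34 after LPS, and to -1.26 and -1.49 in 200 µM and 50 µM against LPS.

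The pair differences rest on exact tests at the smallest p possible, and most fits that left out an array lost their adjusted p. Values below are for H2-D1 minus H2-K1 (LPS, 200 µM), Tap1 minus Tap2 (LPS, 200 µM) and Cd80 minus Cd86 (LPS, 200 µM), each against control, none of them past an adjusted p of 0.05 in the settings named next. With normexp they were -0.37, -0.20, 0.40, -0.34, -3.89 and 0.36. With the red channel alone they were -0.23, -0.16, 1.42, -0.44, -4.21 and 0.36. With the mean of all probes they were -0.31, -0.08, 0.45, -0.43, -2.69 and 0.40. With the dimmer probe, chosen after seeing the data, they were -0.25, 0.03, 0.45, -0.43, -1.33 and 0.36. With the replicate block, as an exact permutation within slides chosen after seeing the data, they were -0.40, -0.21, 0.45, -0.43, -4.06 and 0.44, each at the smallest p its slides allow. Without background subtraction Cd80 minus Cd86 was 0.39 at 200 µM and, now under 0.05, 0.33 at 50 µM. Leaving out an array gave -0.40 to -0.35, -0.22 to -0.15, 0.38 to 0.53, -0.50 to -0.39, -4.25 to -3.89 and 0.35 to 0.53, in the same order, and at 50 µM -0.06 to 0.01, -0.22 to -0.11 and 0.31 to 0.45. The cause of these shifts was not tested.

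At 200 µM the 3 ligands called became 0 with normexp, 1 without background subtraction and 1 to 4 when an array was left out. The 3 CD40 signalling genes became 1 with normexp. Without the arrays marked for evaluation (chosen after seeing the data) control b was the only control array, so no count of these lists is given for that fit. The 5 class I regulators called after LPS became 9 on the second scan day alone.

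Dim probes limit what can be said of the second probes of Nlrc5 and Cd80, and of Cd70 and Tnfsf4.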
